A study of Arabidopsis thaliana with 9 samples.

Results

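LRX3 (AT4G13340), LRX4 (AT3G24480), LRX5 (AT4G18670), PRP2 (AT2G21140) and PRP4 (AT4G38770) are Arabidopsis thaliana genes for structural proteins of the plant cell wall. The 5 genes were taken by name from the 24331 loci with values in a single FPKM table, where FPKM is the number of sequenced fragments scaled by transcript length and library depth. They were chosen with their lower level in Brz-treated seedlings already known, so their difference between Brz-treated and untreated Col-0 is a description and was given no test. All 5 passed the filter on low values (at least 1 FPKM in at least 3 libraries), as did 17662 genes in all, and the lowest value of any of the 5 was 11.03 FPKM.

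The study measured messenger RNA of whole 5-day-old seedlings in 9 libraries of 3 groups, with 3 libraries per group. The groups were wild-type Col-0 without treatment, a MIR394A overexpressor (MIR394A OE) without treatment, and Col-0 grown with 2 µM Brz in half-strength MS medium. The labels do not spell out Brz; in work on plant hormones the abbreviation usually stands for brassinazole, an inhibitor of brassinosteroid synthesis. All groups were kept at 4 °C for 4 days and then at 22 °C, in days of 16 h light and 8 h dark. The labels give neither the background strain or promoter of the overexpressor nor whether it is 1 line. Whether replicates were grown separately is not stated either, so the p-values reflect spread among libraries that may be partly technical. By its title, the series asks how miR394 bears on signalling by brassinosteroids and on growth of the hypocotyl. Values of the MIR394A precursor were not analysed here.

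LRX proteins are chimeras of the cell wall. Their leucine-rich repeats lie outside the cell and can bind RALF peptides, and their extensin-like tail, rich in serine and hydroxyproline, anchors them in the wall. LRX3, LRX4 and LRX5 act in vegetative tissue, where they work with the receptor kinase FERONIA in wall sensing and cell expansion, whereas LRX1 and LRX2 act in root hairs and other LRX-type genes act in pollen. PRP2 and PRP4 encode proline-rich proteins known from leaves, stems and other aerial organs, and PRP1 and PRP3 are known from roots. Brassinosteroids are steroid hormones that promote cell expansion, which requires the wall to be loosened and new wall material to be laid down.

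The promoters are shown because the 3 LRX genes and PRP4 varied closely together across libraries, and PRP2 less closely. Each line holds the 250 bases upstream of the RefSeq gene start in the TAIR10.1 genome, 5′ to 3′ on the strand of the gene, and the capitals mark matches to the motifs described after the sequences.
LRX3, chr4:7758025-7758274, + strand: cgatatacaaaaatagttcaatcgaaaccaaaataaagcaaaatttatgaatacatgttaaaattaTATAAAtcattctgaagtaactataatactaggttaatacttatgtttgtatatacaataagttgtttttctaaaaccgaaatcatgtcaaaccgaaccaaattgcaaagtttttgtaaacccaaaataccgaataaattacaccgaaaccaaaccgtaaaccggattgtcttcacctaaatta
LRX4, chr3:8902836-8903085, - strand: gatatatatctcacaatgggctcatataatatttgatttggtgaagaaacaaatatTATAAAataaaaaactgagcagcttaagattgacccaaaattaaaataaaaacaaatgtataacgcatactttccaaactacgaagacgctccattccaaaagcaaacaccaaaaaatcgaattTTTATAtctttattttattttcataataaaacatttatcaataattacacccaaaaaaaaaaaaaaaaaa
LRX5, chr4:10278795-10279044, - strand: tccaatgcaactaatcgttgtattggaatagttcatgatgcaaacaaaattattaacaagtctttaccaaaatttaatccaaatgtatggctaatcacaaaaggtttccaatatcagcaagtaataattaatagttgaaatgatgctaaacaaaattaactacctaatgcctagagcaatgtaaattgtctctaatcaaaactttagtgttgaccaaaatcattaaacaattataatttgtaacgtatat
PRP2, chr2:9062094-9062343, - strand: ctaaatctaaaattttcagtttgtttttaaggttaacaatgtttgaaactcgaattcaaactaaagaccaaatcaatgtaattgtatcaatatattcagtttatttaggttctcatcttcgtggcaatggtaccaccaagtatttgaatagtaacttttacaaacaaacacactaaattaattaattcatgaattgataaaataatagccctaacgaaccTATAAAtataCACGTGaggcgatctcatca
PRP4, chr4:18098634-18098883, - strand: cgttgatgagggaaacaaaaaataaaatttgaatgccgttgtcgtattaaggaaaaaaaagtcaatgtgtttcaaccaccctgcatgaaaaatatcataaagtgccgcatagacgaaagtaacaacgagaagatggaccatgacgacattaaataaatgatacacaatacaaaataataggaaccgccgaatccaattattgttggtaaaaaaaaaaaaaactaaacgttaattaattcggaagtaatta

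Capitals mark the TATA box TATAAA, the G-box CACGTG and the brassinosteroid response element (BRRE, searched as CGTGTG or CGTGCG), each on both strands. The promoter of PRP2 held the only G-box, which began 20 bases upstream of the start, and a TATA box that began 30 bases upstream. Among the 27443 promoters of the same length in the annotation, 6.5% held a G-box and 47.3% a TATAAA match. TATAAA was also found in LRX3, 184 bases upstream, and in LRX4, 194 and 70 bases upstream, but in neither LRX5 nor PRP4. No BRRE match was found in the 5 windows, against 6.7% of all promoters. The looser E-box CANNTG, which includes every G-box, was not set in capitals; it occurred in LRX4, LRX5 and PRP2 and in 55.3% of all promoters. No motif searched was common to the 5 windows, and no exon of another locus lay in them.

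The gene models differ in length, which bears on the values below. LRX3 (chr4:7758275-7761362, + strand) has a single exon, a transcript of 3088 bases and a coding sequence of 2283 bases. LRX4 (chr3:8901154-8902835, - strand) also has a single exon and is shorter, at 1682 bases with 1485 coding. LRX5 (chr4:10275462-10278794, - strand) is a single exon of 3333 bases with 2574 coding. PRP2 (chr2:9060561-9062093, - strand) has 2 exons and a transcript of 1331 bases with 966 coding. PRP4 (chr4:18096606-18098633, - strand) has 2 exons and a transcript of 1935 bases with 1347 coding. LRX3 and LRX5 are thus longer than 91.2% and 92.9% of loci, while PRP2 lies near the median. No stretch of 50 bases in LRX3, LRX4, LRX5 or PRP2 occurs in the transcripts of another locus, so the LRX genes do not share reads of that length. In PRP4, 228 of 1886 such windows are shared with AT4G38775, which lies on the opposite strand within PRP4. Whether counting used the strand is not given in the sources used here, so reads of the 2 loci cannot be told apart. AT4G38775 was listed at 0.23 to 7.95 FPKM, far below PRP4.

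The libraries were sequenced to similar depth, 20.9 to 22.3 M reads by a fit to the steps of low FPKM values. At that depth the 5 genes held about 397 to 76786 reads per library, a counting error of 0.36% to 5.02%. On a principal component analysis of all tested genes, the first component (61.9% of the variance) put the Brz-treated libraries at 23.8, 64.9 and 64.5 and the others at -30.7 to -18.2. On that axis Brz-treated replicate 1 was thus intermediate. The second component (16.7%) put 3 libraries at -29 to -23.6, namely replicate 2 of Col-0, replicate 3 of MIR394A OE and again Brz-treated replicate 1. The others spread from 3.6 to 25.6, with MIR394A OE replicate 2 (25.6) and Col-0 replicate 3 (21) farthest out on that side. The shoot label was checked against 5 photosynthesis genes, which summed to 37800 to 44100 FPKM in Col-0, 36500 to 43400 in MIR394A OE and 38800 to 47500 in Brz-treated Col-0. Because whole seedlings were used, 5 root genes were also summed, at 1590 to 2120, 1980 to 2510 and 1480 to 1980 FPKM. PYK10, at 1436.73 to 2451.19 FPKM, made up most of each sum, while NRT2.1 was at 0 to 0.07 FPKM. The organ in which the 5 wall genes were expressed cannot be read from these data. Of the photosynthesis genes 3 were called in Brz-treated Col-0 (CAB1 higher, CA1 and RCA lower), of the root genes 0, and of 5 listed root hair genes 1 (EXPA18, higher). Over all tested genes 28.7% were lower and 13.2% higher. The root gene NRT2.1 and the root hair gene RSL4 did not pass the filter and were not tested. The root hair genes summed to 11.1 to 33 FPKM in Col-0, 18.8 to 40.2 in MIR394A OE and 30.9 to 45 with Brz. No marker was at 0 in every library of a group, and the part of these shifts in the results below was not tested.

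All 5 wall genes were lower in Brz-treated Col-0 than in untreated Col-0, and for each gene the highest Brz-treated library lay below the lowest Col-0 library. The 3 LRX genes and PRP4 were 4.01-fold to 4.89-fold lower, and PRP2 was 2.55-fold lower. In bulk tissue, fewer cells of a type and less RNA per cell cannot be told apart.

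LRX3 was the most highly expressed of the LRX genes. It measured 96.25, 80.60 and 164.25 FPKM in the Col-0 libraries and 137.14, 118.84 and 70.53 FPKM in the MIR394A OE libraries. In the Brz-treated libraries it measured 19.62, 27.02 and 24.55 FPKM. The untreated groups overlapped almost completely, and all Brz-treated values lay well below them. The mean was 114 ± 44.5 FPKM without and 23.7 ± 3.77 with Brz (SD, n = 3). On the log2(FPKM + 1) scale the fold change was -2.16 ± 0.28 (SE).

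LRX4 encodes a related LRX protein of vegetative tissue. Its values were 57.72, 51.85 and 87.74 FPKM in Col-0 and 91.49, 78.61 and 42.04 FPKM in MIR394A OE. With Brz they were 11.03, 16.55 and 12.74 FPKM. Col-0 replicate 3 and MIR394A OE replicates 1 and 2 were high, as for LRX3, and MIR394A OE replicate 3 was the lowest of the untreated libraries. The Brz-treated mean was 13.4 ± 2.83 FPKM against 65.8 ± 19.3 in Col-0, a log2 fold change of -2.19 ± 0.28 (SE). Of 17662 tested genes, 2 had a lower log2 fold change than LRX4 and 3 a lower one than LRX3. These ranks, and those of the other genes below, describe the difference by which the genes were chosen. They were taken without removal of the length trend described below.

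LRX5, the longest of the 3 LRX genes, was expressed at a lower level. Its values were 43.94, 40.06 and 67.29 FPKM in Col-0 and 64.44, 60.42 and 31.32 FPKM in MIR394A OE, and the same libraries were high and low as for LRX3 and LRX4. In the Brz-treated libraries LRX5 measured 12.53, 13.72 and 11.47 FPKM, below every untreated library. The log2 fold change in Brz-treated Col-0 was -1.89 ± 0.26 (SE), and 16 genes had a lower one.

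PRP4, a proline-rich wall protein, was the most abundant of the 5 genes. It measured 1279.48, 1099.27 and 1887.41 FPKM in Col-0 and 1640.95, 1807.16 and 887.34 FPKM in MIR394A OE. Its values with Brz were 296.93, 370.98 and 318.48 FPKM. PRP4 ranked 53 to 86 among all loci in the Col-0 libraries and 330 to 394 in the Brz-treated ones, and its part of the summed FPKM was 0.148% to 0.254% in Col-0 and 0.037% to 0.0432% with Brz. The log2 fold change was -2.08 ± 0.25 (SE), and 9 genes had a lower one. The overlapping AT4G38775 was also lower with Brz, at 0.23 to 1.16 FPKM against 2.92 to 7.69 in Col-0.

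PRP2, a second proline-rich protein of aerial organs, differed least. Its values were 114.73, 135.26 and 201.81 FPKM in Col-0 and 137.49, 99.46 and 90.80 FPKM in MIR394A OE. With Brz the 3 libraries were nearly alike, at 58.82, 57.15 and 61.23 FPKM. The log2 fold change was -1.30 ± 0.20 (SE), and 259 genes had a lower one. Unlike the other 4 genes, PRP2 was lower than the Col-0 mean in every MIR394A OE library, although the ranges overlapped.

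**Figure D1:**
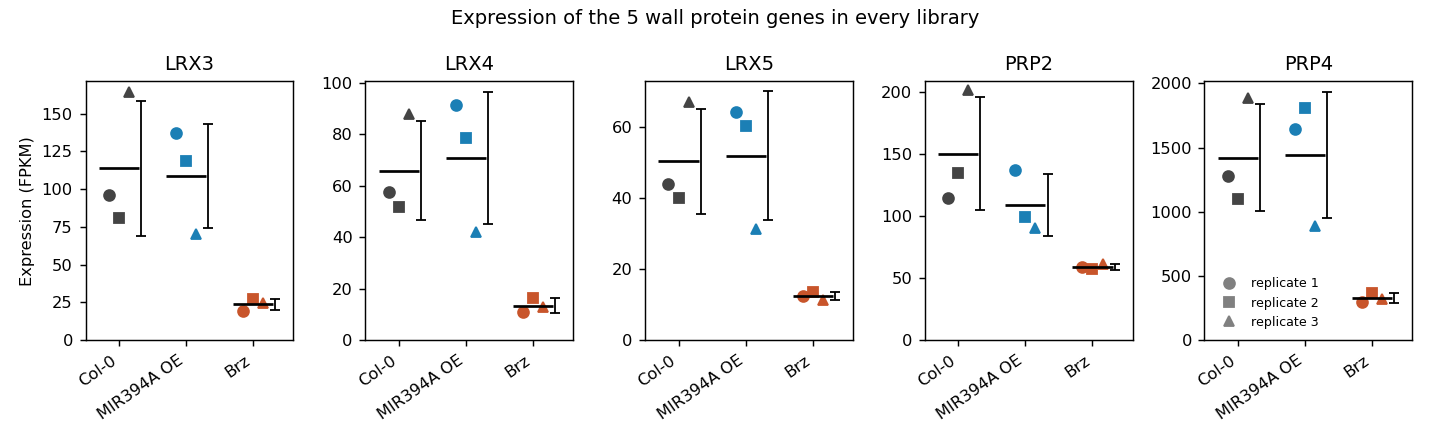
Expression (FPKM, linear axes from 0) of LRX3, LRX4, LRX5, PRP2 and PRP4 in each of the 9 libraries; marker shapes are replicates, horizontal lines group means and bars the SD of 3 libraries. The Brz-treated libraries lie below every untreated library in all 5 genes, and Col-0 replicate 3 is the highest and MIR394A OE replicate 3 the lowest of its group in each.

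The median log2 fold change of the 5 genes in Brz-treated Col-0 was -2.08, against -0.22 over all tested genes. The groups did not overlap, with lower values under Brz, in the 5 genes and in 32% of all tested genes; the genes were chosen by this difference, and nothing is read from the count. Leaving out Brz-treated replicate 1, the library between the groups, gave a median of -2.01. That library was the lowest of the 3 for LRX3, LRX4 and PRP4, although it was the closest to the untreated libraries over all genes.

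Long transcripts were in general lower in the Brz-treated libraries, so each gene was also set against genes of its own length. The tested genes were divided into 20 bins by transcript length. The median log2 fold change was -0.75 in the bin that held LRX3 and LRX5, -0.31 for PRP4, -0.16 for LRX4 and 0.02 for PRP2. All 5 genes lay below the lower quartile of their bin. With the length trend removed from each library, the log2 fold change was -2.0 for LRX4, -1.76 for PRP4, -1.47 for LRX3, -1.32 for PRP2 and -1.15 for LRX5. The order of the genes thus changed: LRX5 was then lower by less than PRP2, although these 2 values differ by less than the SE of either gene before the removal. Under median-ratio scaling, which moved the median of all genes from -0.22 to 0.01, the values were -1.92 for LRX4, -1.88 for LRX3, -1.80 for PRP4, -1.62 for LRX5 and -1.02 for PRP2.

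**Figure D2:**
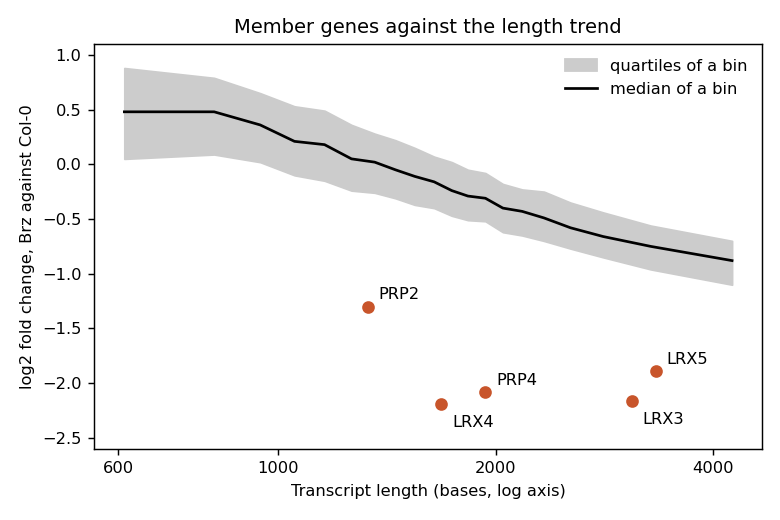
Change with Brz in Col-0 (log2 fold change on the log2(FPKM + 1) scale) against transcript length (bases, log axis) for the 5 genes, with the median (line) and quartiles (grey) of all tested genes in 20 length bins. The 5 genes, at -2.19 to -1.30, lie below the grey band, whose median falls from 0.48 in the shortest bin to -0.88 in the longest.

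In MIR394A OE, none of the 5 genes was called against Col-0. This comparison shares the Col-0 libraries with the one by which the genes were chosen. High values in those libraries favour both that choice and a lower estimate here, so the p-values and intervals are not free of the choice. The log2 fold changes were -0.05 for LRX3 (95% confidence interval -0.65 to 0.55), 0.07 for LRX4 (-0.53 to 0.67), 0.01 for LRX5 (-0.55 to 0.58) and 0.00 for PRP4 (-0.55 to 0.55). For these 4 genes the intervals reach from 0.638-fold to 1.59-fold of Col-0, so smaller changes were not detectable with this spread. Larger changes could also go uncalled, because the intervals are per gene and calls are adjusted over 17662 genes. EXT1, an extensin gene described below, had a log2 fold change of -0.80 (unadjusted p by limma = 0.0041) and was not called. How large a change would have been called was not tested. PRP2 was at 151 ± 45.5 FPKM in Col-0 and 109 ± 24.8 in MIR394A OE (SD, n = 3), and its log2 fold change was -0.44 (95% confidence interval -0.88 to 0.00). Its unadjusted p by limma was 0.050, and its adjusted p, like that of the other 4 genes, was 1.0. Its log2 fold change was -0.62 when replicate 1 of Col-0 or of MIR394A OE was left out and -0.21 when replicate 3 of Col-0 was, and it was not called in any of these fits. By the same limma test 0.034% of the 17662 genes (6, all lower) were called in this comparison, and 401 (2.27%) had an unadjusted p under 0.05. The groups overlapped in all 5 genes, against no overlap in 5.77% of all genes. A further fit left out the 2 untreated libraries at the negative end of the second component, Col-0 replicate 2 and MIR394A OE replicate 3. The values were then 0.02 for LRX3, 0.25 for LRX4, 0.19 for LRX5, -0.38 for PRP2 and 0.15 for PRP4, again with 0 calls. Col-0 replicate 3 and MIR394A OE replicate 2, at the other end, were kept.

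Against Brz-treated Col-0, MIR394A OE was higher by 2.11 for LRX3, 2.26 for LRX4, 1.90 for LRX5, 0.85 for PRP2 and 2.07 for PRP4 on the log2 scale. These values share the Brz-treated libraries with the comparison by which the genes were chosen and are given without a test. The median was 2.07, against 0.21 over all genes.

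Within the untreated groups the LRX genes and PRP4 varied together from library to library. Col-0 replicate 3 was the highest and MIR394A OE replicate 3 the lowest library of its group for all 5 genes. The median log2 difference of the 5 genes from the Col-0 mean was 0.45 in the former library and -0.63 in the latter, while the median of all tested genes was -0.09 and 0.10. Over the 6 untreated libraries, the 6 pairs among LRX3, LRX4, LRX5 and PRP4 had Pearson correlations of 0.95 to 0.99 on the log2(FPKM + 1) scale. By exact permutation tests (two-sided) adjusted over the 10 pairs, each of these had p = 0.012. Their Spearman correlations were 0.83 to 1.0, with adjusted exact p of 0.028 to 0.033 except for LRX4 with PRP4, at 0.097. Without the 2 libraries farthest from the median, r was 0.91 to 1.0 over 4 libraries. PRP2 followed the other genes less closely. Its 4 pairs had r of 0.55 to 0.71 (adjusted exact permutation p of 0.15 to 0.27), and without the 2 farthest libraries r was -0.50 to 0.37. How many other gene pairs vary as closely as the LRX genes and PRP4 over these 6 libraries was not computed. Other genes, named below, reached r of 0.987 to 0.997 with the mean profile of the 5 genes there. The close variation is thus not shown to be particular to these genes. Whether the libraries with high values differ in growth stage or handling was not tested.

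**Figure D3:**
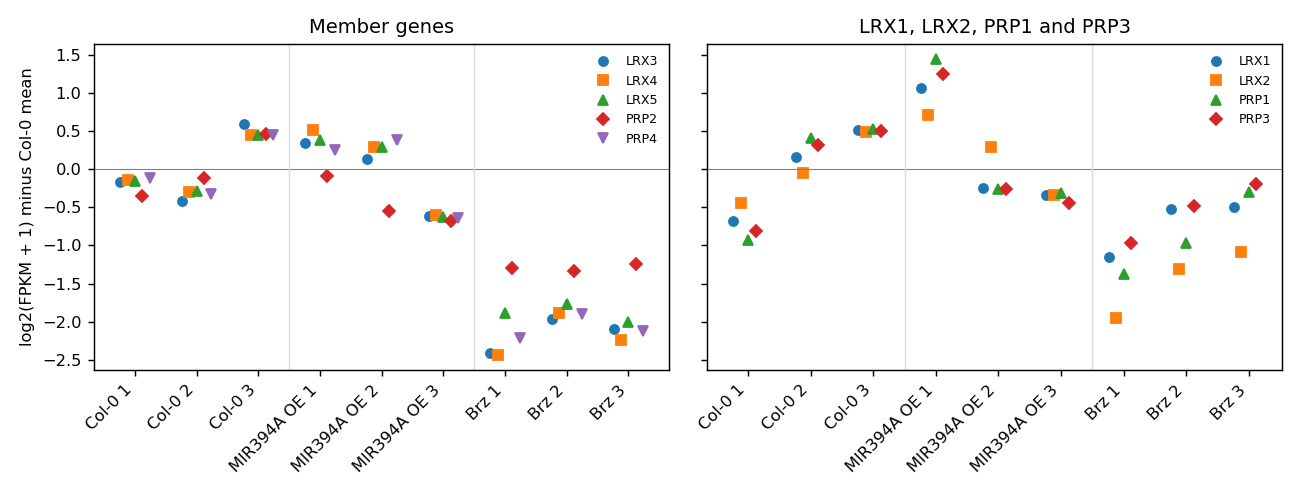
Difference in log2(FPKM + 1) from the Col-0 mean in each library, for the 5 genes (left) and for LRX1, LRX2, PRP1 and PRP3 (right); each marker is 1 library. LRX3, LRX4, LRX5 and PRP4 track each other from library to library, and PRP2 lies above them in the Brz-treated libraries, at -1.34 to -1.24.

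By FPKM, which is scaled to length, the order of the mean levels in Col-0 was PRP4, PRP2, LRX3, LRX4 and LRX5. PRP2 and LRX3 differed by less than their SD there. The means of LRX4 (65.8 ± 19.3 FPKM) and LRX5 (50.4 ± 14.7) differed by about 1 SD, and LRX4 was above LRX5 in each Col-0 library. The order of the means was the same with Brz, where LRX4 (13.4 ± 2.83) and LRX5 (12.6 ± 1.13) again lay within their SD and PRP2 (59.1 ± 2.05) stood clear of LRX3. Ratios among the LRX genes and PRP4 within a library were steadier than their levels. The ratio of PRP4 to LRX3 lay between 11.5 and 15.2 over all 9 libraries, a 1.32-fold range, while the level of PRP4 itself ranged from 296.93 to 1887.41 FPKM. Steadiness across the Brz-treated and untreated libraries can follow from the choice of genes lower with Brz, and nothing is read from it. In the 6 untreated libraries alone this ratio also spanned 11.5 to 15.2, while PRP4 ranged from 887.34 to 1887.41 FPKM. The ratio of LRX3 to LRX4 lay between 1.5 and 1.93, and that of LRX3 to LRX5 between 1.57 and 2.44. LRX4 stood to LRX5 at 1.30 ± 0.01 in Col-0, 1.35 ± 0.0611 in MIR394A OE and 1.07 ± 0.169 with Brz (SD, n = 3). The ratio of PRP2 to LRX3 was 1.37 ± 0.272 in Col-0, 1.04 ± 0.229 in MIR394A OE and 2.54 ± 0.442 with Brz, and the Brz-treated range (2.12 to 3.00) lay above the Col-0 range (1.19 to 1.68). PRP4 was 9.56 ± 1.55 times PRP2 in Col-0, 13.3 ± 4.38 times in MIR394A OE and 5.58 ± 0.792 times with Brz. These are descriptions; 3 libraries against 3 cannot give an exact permutation p under 0.10 in a two-sided test.

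**Figure D4:**
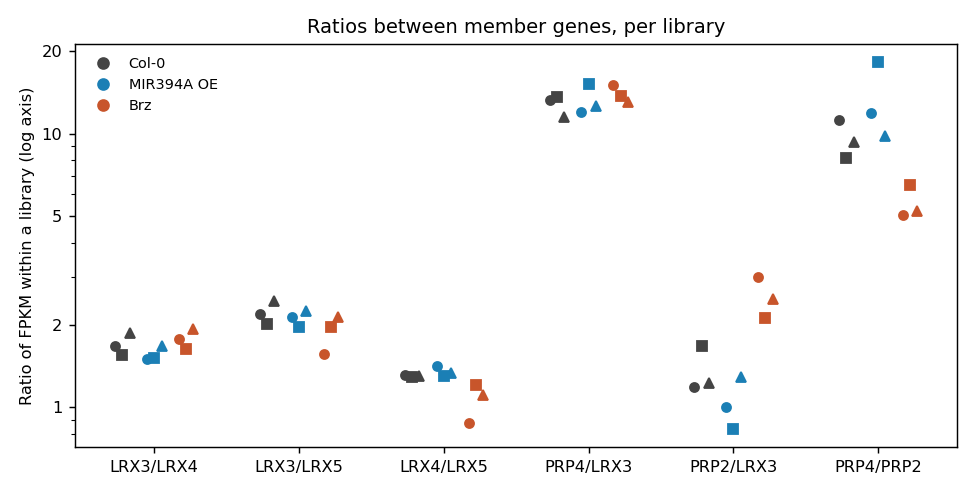
Ratios of FPKM between pairs of the 5 genes in each library (log axis), with colours for groups and marker shapes for replicates. PRP4/LRX3 stays between 11.5 and 15.2 in all 9 libraries, whereas PRP2/LRX3 is 2.12 to 3.00 in the Brz-treated libraries and 0.837 to 1.68 in the others.

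LRX3, LRX4 and LRX5 made up most of the LRX-type expression in these seedlings. Of the FPKM summed over 11 LRX-type loci they held 85.6% to 89.9% in Col-0, 87.3% to 91.6% in MIR394A OE and 77% to 82.1% in Brz-treated Col-0. The sum itself was 202 to 355 FPKM in Col-0, 164 to 336 in MIR394A OE and 52.6 to 71.3 with Brz. Of the 8 other loci, 5 passed the filter, and 4 of these were lower with Brz and 0 higher by limma. Over all tested genes 28.7% were lower and 13.2% higher. The median log2 fold change of these 5 other loci was -0.76, against -0.22 over all tested genes. AT3G22800, annotated as a leucine-rich repeat family protein, fell from 10.01 ± 1.60 to 3.8 ± 0.870 FPKM (-1.20 ± 0.23, SE, adjusted p by limma = 0.0026). LRX1, the root hair gene, measured 9.01 ± 3.83 FPKM in Col-0 and 4.84 ± 1.38 with Brz and was not called (-0.73 ± 0.38, adjusted p by limma = 0.14). The other 3 called genes lay below 10 FPKM and are named after their values were seen: LRX2 fell by 1.45 on the log2 scale, AT1G49490 by 0.75 and AT2G15880 by 0.76. With the length trend removed, AT3G22800 alone of these stayed called (-0.88, adjusted p by limma = 0.043). The difference between LRX1 and LRX3 was not tested.

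Of the 7 other proline-rich wall protein genes, 1 was lower with Brz and 0 higher, against 28.7% and 13.2% of all tested genes. The median log2 fold change of the 7 genes was -0.25, against -0.22 over all tested genes. Without Col-0 replicate 1 the number of lower genes was 3, with PRP1 and PELPK1 added. AGP31, an arabinogalactan protein of the wall, fell from 299.997 ± 74.1 to 149 ± 9.96 FPKM (-0.98 ± 0.26, adjusted p by limma = 0.011), but it was not called under median-ratio scaling, nor once the length trend was removed (adjusted p by limma = 0.069). PRP1, known from root hairs, measured 23.2 ± 11.1 FPKM in Col-0 and 11.6 ± 4.88 with Brz (-0.89 ± 0.48, adjusted p by limma = 0.15). PRP3 measured 67.7 ± 28.4 and 43.8 ± 11.7 FPKM (-0.55 ± 0.42, adjusted p by limma = 0.30). In MIR394A OE replicate 1 both were at their highest, at 59.12 and 150.42 FPKM, unlike PRP2 and PRP4. PRPL1 (0.39), AGP30 (0.25), PELPK1 (-0.25) and PELPK2 (0.86 on the log2 scale) were not called.

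Extensins are hydroxyproline-rich proteins that crosslink into a network in the wall. Of 14 extensin genes 13 had values and passed the filter; 6 were lower with Brz, where 28.7% of all tested genes were lower, and 0 higher, with log2 fold changes of -2.08 to -0.79 and a median of -1.1. EXT3, a major extensin, fell from 1265 ± 280 to 559 ± 142 FPKM (-1.19 ± 0.28, adjusted p by limma = 0.0070), and EXT1 from 559 ± 122 to 232 ± 47.6 (-1.26 ± 0.23, adjusted p by limma = 0.0018). AT2G43150 fell from 490 ± 116 to 173 ± 51.6 FPKM (-1.52 ± 0.28, adjusted p by limma = 0.0021). EXT12 (-1.13), AT1G23720 (-1.30) and AT1G26250 (-2.08) were also called; EXT12 was called in 7 of the 17 alternatives. AT1G26250 measured 32.93 FPKM in Col-0 replicate 1, 2.65 and 4.77 in the other Col-0 libraries and 0.81 to 1.5 with Brz, its call was lost without Brz-treated replicate 1, and 62.42% of its windows of 50 bases are shared with a neighbouring locus. HRGP1 (-1.07), EXT6 (-1.1), AT4G08400 (-0.79), AT4G08410 (-0.90), AT5G06630 (-0.96), EXT10 (-0.85) and AT3G54580 (-1.05) were not called. Several extensins are near-identical copies or overlap another locus, AT4G08400 sharing 56.11% and EXT3 25.36% of their windows, so the split of reads is uncertain. The number of lower extensins was 11 without Col-0 replicate 1, 10 without MIR394A OE replicate 1, 3 without Brz-treated replicate 1, 3 under median-ratio scaling and 2 (EXT1 and AT2G43150) with the length trend removed. In MIR394A OE no extensin was called; EXT1, at 324 ± 87.2 FPKM, had a log2 fold change of -0.80 ± 0.23 with an unadjusted p by limma of 0.0041 and an adjusted p of 1.0.

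The receptors and peptides that act with LRX proteins did not move in one direction. Of 10 tested genes 4 were higher and 3 lower with Brz, against 13.2% and 28.7% of all tested genes. The lower count is near the share over all genes. The median log2 fold change of the 10 genes was 0.41, against -0.22 over all tested genes. FER, the receptor kinase FERONIA, fell from 46.0 ± 3.53 to 25.6 ± 7.39 FPKM (-0.85 ± 0.18, adjusted p by limma = 0.0042), and the related kinases THE1 (-1.36) and HERK1 (-0.85; below 10 FPKM and named after its values were seen) were also lower. With the length trend removed FER (-0.14) and HERK1 (-0.13) were no longer called, and THE1 was (-0.62, adjusted p by limma = 0.010). RALF23, one of the peptides that bind LRX proteins, rose from 140 ± 13.1 to 347 ± 100.4 FPKM (1.26 ± 0.20, adjusted p by limma = 0.0010), the direction opposite to that of LRX3. RALF1 (0.99), RALFL31 (0.80) and RALFL34 (0.40) were also higher, while RALFL22 (0.42), RALFL33 (0.43) and LLG1 (0.14), a partner of FERONIA at the membrane, were not called. Of the peptide genes RALF1 (0.62), RALFL22 (0.74) and RALF23 (1.59) were called higher once the length trend was removed, and the call of RALFL34 was also lost when any single Col-0 library was left out.

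The last list held genes for enzymes that hydroxylate proline or add sugars to extensins. Of 10 tested genes 2 were lower with Brz and 0 higher, with a median of -0.31, and the lower count is near the 28.7% over all tested genes. XEG113, an arabinosyltransferase of extensins, was lower (-0.54 ± 0.17, adjusted p by limma = 0.024), as was AT3G01720 (-0.72), a galactosyltransferase below 10 FPKM that is named after its values were seen. With the length trend removed neither was called, and with a single library left out the number of lower genes was 0 to 3; without Col-0 replicate 2 or 3, or Brz-treated replicate 2 or 3, it was 0. The prolyl hydroxylase genes P4H2 (0.23) and P4H5 (0.24) and the arabinosyltransferase-like genes AT5G25265 (-0.16) and AT5G13500 (-0.03) were not called. Under median-ratio scaling 1 gene was lower and 3 (P4H2, P4H5 and RRA1) were higher, and with the length trend removed RRA1 alone was higher (0.61, adjusted p by limma = 0.0057); RRA1 lay below 10 FPKM and is named after its values were seen. In MIR394A OE, 0 genes of any of the 5 related lists were called by limma.

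**Figure D5:**
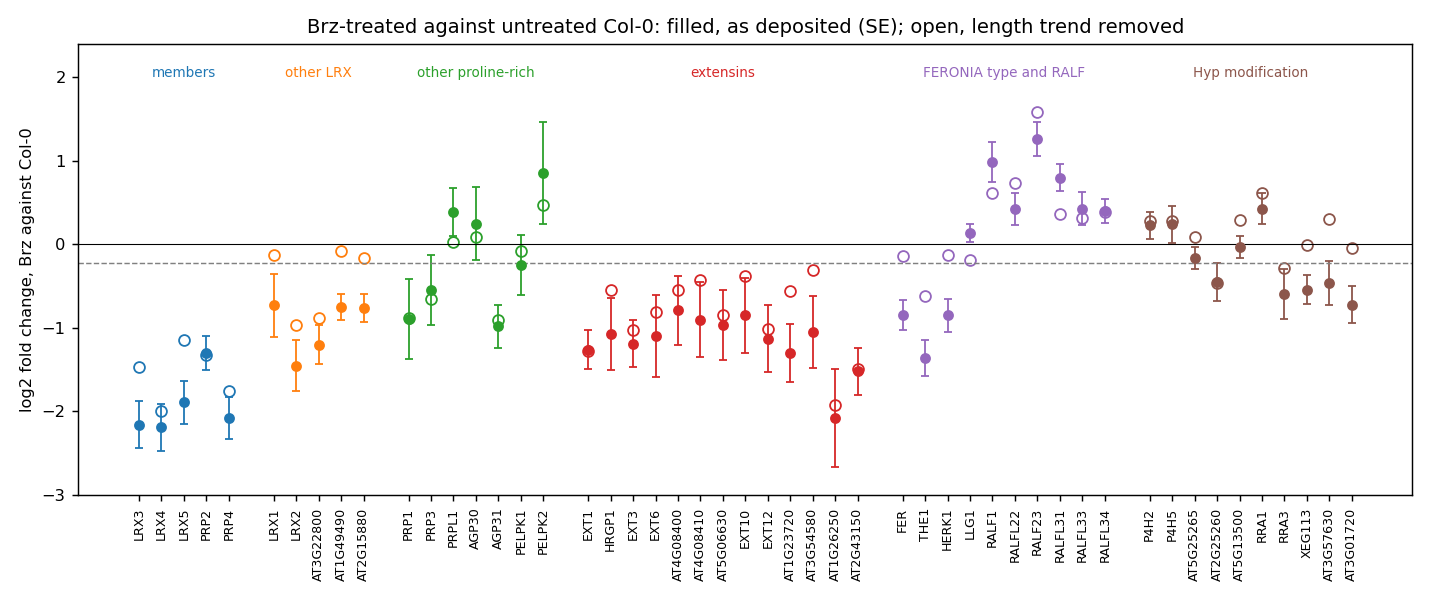
Change with Brz in Col-0 (log2 fold change) for the 5 genes and the tested genes of the 5 related lists; filled points with SE are from the values as deposited, open points have the length trend removed, and the dashed line is the median of all genes (-0.22). The 5 genes lie at -2.19 to -1.30, the extensins at -2.08 to -0.79, and RALF23 at 1.26.

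The genes whose profiles were most like the mean standardized profile of the 5 genes were sought among 8416 genes of at least 10 FPKM in a group. Over the 9 libraries these were BG_PPAP (AT5G42100), a beta-1,3-glucanase, at r = 0.994, RD22 (0.993), a BURP domain protein, ASPG1 (0.993), an aspartic protease, FLA16 (0.992), a fasciclin-like arabinogalactan protein, and AT4G16980 (0.991), an arabinogalactan protein. All 5 were lower with Brz, which follows from their choice by likeness to genes lower with Brz, and nothing is read from it. FLA16, for example, was at 78.0 ± 14.0 FPKM in Col-0, 78.8 ± 24.2 in MIR394A OE and 25.6 ± 1.08 with Brz. Over the 6 untreated libraries alone they were AT4G34480 (0.997), a glycosyl hydrolase, AT1G68400 (0.991), a receptor-like kinase, KCS6 (0.991), an enzyme of cuticular wax synthesis, GPP1 (0.988), a glycerol-3-phosphatase, and AT2G43160 (0.987). Likeness among the untreated libraries did not go with a lower level under Brz in every gene. KCS6 was at 233 ± 36.6 FPKM in Col-0 and 95.6 ± 5.55 with Brz, while GPP1 was at 13.3 ± 1.33 and 13.8 ± 1.1. These correlations describe 9 or 6 libraries and were picked as the highest of many.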

How the data were processed

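Messenger RNA of 9 whole-seedling libraries was analysed from 1 table of FPKM values that the authors deposited, per the file headers. The submitters' processing notes list Bowtie2 and HISAT without saying what each did or its version; for the FPKM program, the build and the strand setting, the answer is not given in the sources used here. Of its 48351 transcript IDs, 99.57% occur in the TAIR10.1 RefSeq annotation, which gave coordinates, lengths, names and promoters (27438 of 27647 loci matched). FPKM is scaled to depth and length, so long or abundant transcripts weigh on the values of others.

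The tests were made with limma 3.58.1 under R 4.3.3 (lmFit, then eBayes with a trend on mean level) on log2(FPKM + 1), which understates the change of low genes, in 1 model of group means over all 9 libraries, which left 6 residual degrees of freedom. Genes with at least 1 FPKM in at least 3 libraries entered (17662). P-values were two-sided and adjusted by Benjamini-Hochberg over all of them, with calls at an adjusted p under 0.05. The fit was tested on simulated data. Correlations used exact permutation tests (scipy 1.17.1). Depth was fitted from low FPKM values, of which 86.8% to 90.4% lay within 0.1 of a whole read; intervals of counting error cover counting only, and reads of 1 library are not separate samples.

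The 5 genes, the related lists and the tests were chosen with earlier results of these data known. Named are the 5 genes, list genes with a highest group mean of at least 10 FPKM, and per likeness measure the 5 genes with the highest correlation. Alternatives were no intensity trend, median-ratio scaling, no filter, pseudocounts of 0.1 and 5, each library left out, the replicate number as a block, removal of a loess trend on log2 length (span 0.5; 132 tested genes had no length), and Col-0 replicate 2 with MIR394A OE replicate 3 left out.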

Additional observations from a re-analysis of the deposited data

How the results depend on the processing

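Of 17 alternatives, 0 gave a call of any of the 5 genes in MIR394A OE against Col-0. The median log2 fold change of the 5 genes in Brz-treated against untreated Col-0 was -1.47 with the length trend removed and -2.24 to -1.85 with a library left out; for MIR394A OE against Brz-treated Col-0 it was 1.46 and 1.88 to 2.39. The number of genes called in MIR394A OE against Col-0 was 3 without a filter, 2 when replicate 2 of Col-0 and replicate 3 of MIR394A OE were dropped, and 3 to 6 with a library left out. In Brz-treated against untreated Col-0 it was 4160 with the length trend removed and 4146 to 9455 with a library left out, against 7398, and in MIR394A OE against Brz-treated Col-0 3641 and 3553 to 8972, against 6674. Related genes lower with Brz numbered 4 with the length trend removed and 13 to 24 with a library left out, against 16. Related genes higher numbered 8 under median-ratio scaling and 3 to 6 with a library left out, against 4. EXT3 was not called under median-ratio scaling (-0.91), nor without the length trend (-1.02).

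Values near 0 in MIR394A OE against Col-0 changed sign. PRP4 was at 0.02 under median-ratio scaling, 0.01 with the length trend removed and 0.15 when those 2 libraries were dropped, and LRX3 was then at 0.02. With a library left out LRX3 lay between -0.26 and 0.25, LRX4 between -0.15 and 0.40, LRX5 between -0.17 and 0.34 and PRP4 between -0.20 and 0.31. PRP2 kept its sign, between -0.62 and -0.21. Depth limits the precision of the 5 genes to a counting error of 0.36% to 5.02%. Why values or calls moved between these fits was not tested.

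Replicate numbers did not pair the libraries: same-numbered libraries correlated in their deviations at -0.64 to 0.15 (9 pairs), others at -0.22 to 0.55 (18 pairs). With the replicate number as a block, the calls were 3 in MIR394A OE against Col-0, 5996 in Brz-treated against untreated Col-0 and 5280 in MIR394A OE against Brz-treated Col-0. The block gave 0 calls of the 5 genes in MIR394A OE against Col-0, medians of -2.08 and 2.07, and 15 related genes lower and 3 higher with Brz.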
